A study of Saccharomyces cerevisiae W303 with 16 samples.

Results

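For every intron-containing gene, the transcript reference of this yeast study lists a continuous transcript that keeps the intron beside the spliced mRNA. All entries of the unspliced kind were taken, 343 of 6952 transcripts, and each was set beside the spliced mRNA of its own gene. A spliced mRNA was listed for 296 of them, of which 101 encode cytosolic ribosomal proteins and 195 encode other proteins. The other 47 had no spliced partner. Among these were *OAZ1*, *EST3* and *ABP140*, whose reading frames are joined by a ribosomal frameshift and not by splicing. The other 44 have systematic names only. The paper lists 47 frameshifted genes as a separate class of its reference, the same number as in this set. The name of an unspliced transcript thus did not hold for this set, and no ratio was formed for it.

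Total RNA was depleted of rRNA and sequenced from *Saccharomyces cerevisiae* in the W303 background. *SUP45* cells (strain HFY114) are wild-type for eRF1, the factor that recognises stop codons and releases the finished protein. *sup45-ts* cells (strain HFY1218, derived from HFY114) carry *sup45-2*, a temperature-sensitive allele of the eRF1 gene. Both strains are *MATa* and share the markers *can1-100*, *ade2-1*, *ura3-1*, *trp1-1*, *leu2* and *his3*. Cultures grown in YPD at 25°C were shifted to 37°C for 30 minutes or given a mock shift at 25°C, with 2 replicates for each of the 4 combinations, 8 libraries in all. The labels do not say that replicates were separate cultures, so p-values measure the spread between these libraries, which may be technical. There was 1 strain of each genotype, and effects of the allele and of the strain cannot be told apart. Libraries held between 107324550 and 153654244 estimated counts, and 6 of 6 heat shock mRNAs looked up as a check of the shift (*HSP12*, *HSP26*, *HSP30*, *HSP42*, *HSP104* and *SSA4*) were higher at 37°C in each strain.

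Introns are removed in the nucleus by the spliceosome, and most yeast genes that have an intron have a single one near the 5’ end. Ribosomal protein genes hold the largest share of the spliced mRNA of a growing cell. Unspliced pre-mRNA that reaches the cytoplasm usually meets a stop codon in the intron or shortly after it and is a classic substrate of nonsense-mediated mRNA decay, a pathway that needs termination by eRF1. When yeast is shifted to a higher temperature, transcription of ribosomal protein genes is cut back and their mRNAs are lost rapidly.

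Of the 296 genes, 293 were found in the RefSeq annotation of the R64 genome. The intron lay in the coding region in 269 of these, in the 5’-UTR in 23 and in both in *RPS22B*. The intron length of a gene, taken as unspliced less spliced length and so summed where a gene has more than 1 intron, was 49 to 1040 nt, with a median of 159 nt. The level used below is TPM, which scales each library to the same total and corrects for transcript length, so it is a share of the library. The unspliced share is the unspliced TPM as a percent of the TPM of both forms of the gene. Exonic reads match both forms, so the split between them is an estimate by RSEM that rests on reads in the intron or across the junction. Between replicates, the log2 ratio of unspliced to spliced counts differed by a median of 0.14 to 0.27 in the 4 conditions, over 259 genes with a mean count of at least 100 in each form.

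**Figure D1:**
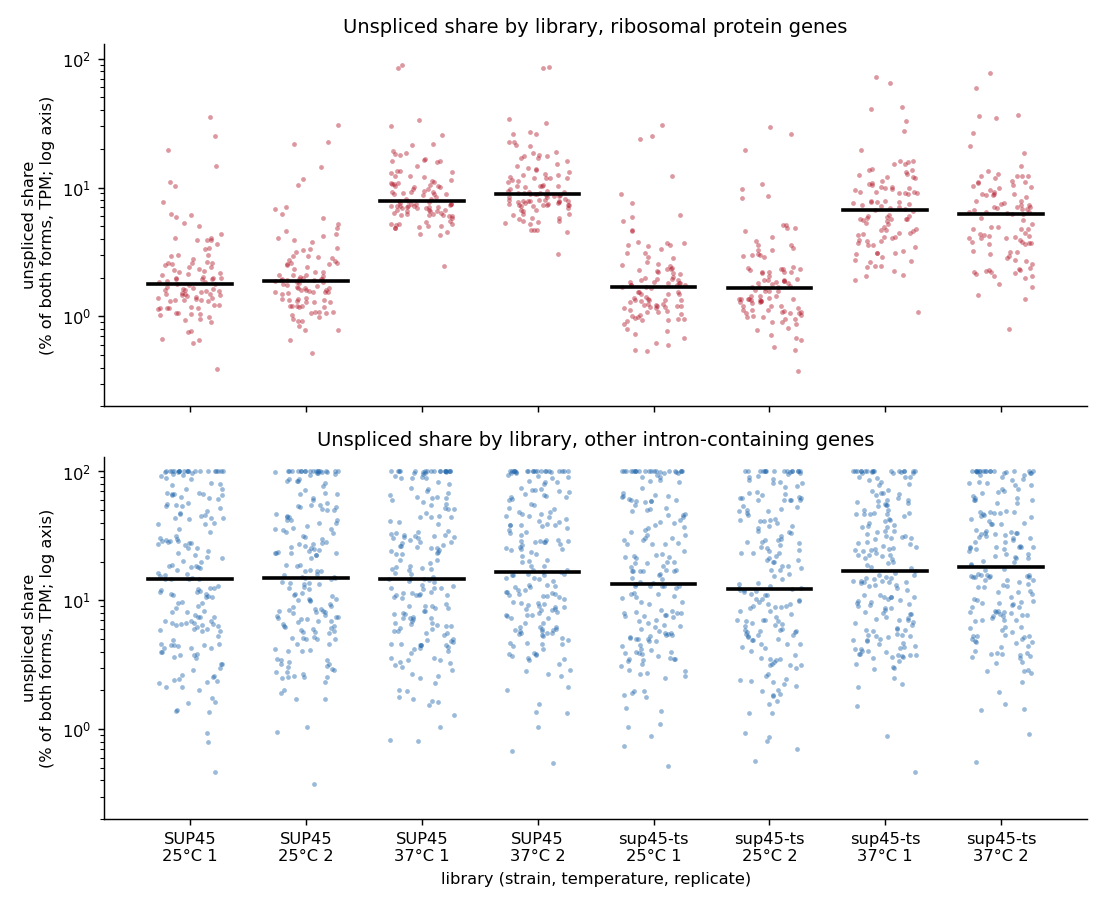
Unspliced share of each gene (percent of the TPM of both forms, log axis) in the 8 libraries, with ribosomal protein genes above and other intron-containing genes below; each point is a gene, a black line is the median, and genes at 0% are not drawn. The ribosomal protein medians lie between 1.66% and 1.90% at 25°C and between 6.18% and 8.94% at 37°C, while the medians of the other genes lie between 12.2% and 18.1% throughout.

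At 25°C nearly all ribosomal protein mRNA was spliced. The median unspliced share of the 101 ribosomal protein genes was 1.79% and 1.90% in the *SUP45* libraries and 1.68% and 1.66% in the *sup45-ts* libraries. At 37°C it was 7.88% and 8.94% in *SUP45* and 6.66% and 6.18% in *sup45-ts*, so the warm and mock libraries did not overlap in either strain. Summed over these genes, spliced TPM was 280600 and 304530 at 25°C and 57069 and 57641 at 37°C in *SUP45* cells. The unspliced sum was 6825 and 7362 at 25°C and 6188 and 7029 at 37°C, overlapping ranges. In *sup45-ts* cells the spliced sum was 266840 and 272270 at 25°C and 48788 and 49712 at 37°C, and the unspliced sum was 5611 and 5856 against 4240 and 3752. The shift in share thus came with a large loss of the spliced form while the unspliced sum moved little in *SUP45* and was lower in *sup45-ts*. In these bulk cultures, fewer cells that express a gene and less RNA per cell cannot be told apart.

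The other 195 intron-containing genes had a higher and far wider unspliced share, with medians of 14.6% and 14.9% (*SUP45*) and 13.5% and 12.2% (*sup45-ts*) at 25°C. At 37°C the medians were 14.7% and 16.5% in *SUP45* and 16.9% and 18.1% in *sup45-ts*. Between 43 and 50 of all genes in a library were listed as mostly unspliced, at over 50%. Reads were not examined, so introns kept in the RNA and the allocation of reads by RSEM cannot be told apart here. In 18 genes the spliced form was listed at 0 in all 8 libraries, and 14 of these stayed among the genes fitted for a ratio although none of them could give a usable fold change.

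The unspliced over spliced ratio was tested in 1 edgeR model over both forms of the 291 genes with a mean unspliced count of at least 10, in which the scaling of a library cancels. On the shift to 37°C in *SUP45* cells, the ratio rose in 135 and fell in 20 of the 291 genes, 46.4% and 6.87% of those tested and 53.3% in either direction. Among ribosomal protein genes it rose in 100 of 101 and fell in none, with a median log2 change of 2.41. *RPS17A* was the exception, a gene named here because of its value, with a log2 change of 0.48 ± 0.36 (SE; adjusted p = 0.29). Among the other genes it rose in 35 and fell in 20 of 190, with a median of 0.12, or 0.11 with the 23 genes that had a form at 0 in a whole group set at their bound. Among these other genes 1 library decided the excess of rises: without replicate 2 of *SUP45* at 37°C, 20 rose and 21 fell with a median of −0.01. Without replicate 1 of that group, 35 rose and 13 fell with a median of 0.26.

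In *sup45-ts* cells the shift raised the ratio in 160 genes (55.0%) and lowered it in 16 (5.5%), 60.5% in all. Ribosomal protein genes accounted for 98 of the rises and none of the falls, with a median log2 change of 1.83. The 3 that did not pass were *RPS9A*, *RPS18A* and *RPL6B* at −0.08, 0.19 and 0.20, named for these values. In the other genes 62 rose and 16 fell, with a median of 0.36, or 0.35 with genes at 0 set at their bound. The ratio rose in both strains in 126 genes, 97 of them ribosomal protein genes.

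**Figure D2:**
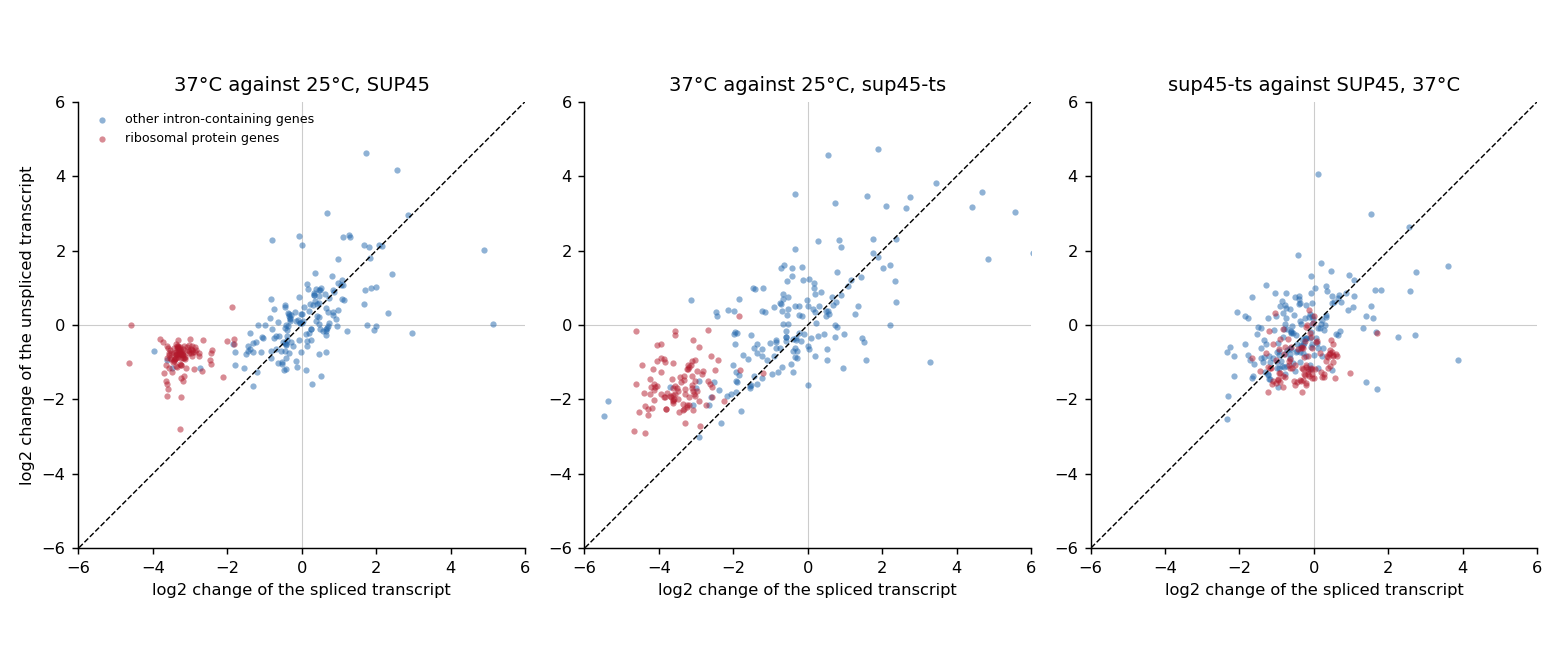
Log2 change of the unspliced transcript (vertical) against that of the spliced transcript (horizontal), both scaled with TMM, for heat in *SUP45*, heat in *sup45-ts*, and *sup45-ts* against *SUP45* at 37°C; each point is a gene with both forms tested, and points above the dashed line have a higher ratio. Of 275 genes, 7, 6 and 3 lie outside the axes of the panels from left to right; under heat the ribosomal protein genes lie above the line at median spliced changes of −3.27 and −3.47.

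Taking the forms apart, the spliced mRNA of 101 of 101 ribosomal protein genes fell on the shift in each strain, by medians of 3.27 and 3.47 on the log2 scale. Over all transcripts in the table, 37.4% were called lower and 38.4% higher in *SUP45* (75.8% in all), and 42.0% lower and 44.6% higher in *sup45-ts* (86.5% in all). The unspliced form of ribosomal protein genes was called lower in 97 of 101 in *SUP45*, with a median of −0.78. This count depended on the scaling: with total counts in place of TMM, a choice made after seeing the data, 41 were lower and 2 higher, the median was −0.23, and the median over all transcripts moved from 0.01 to 0.56. In *sup45-ts* 97 ribosomal protein genes were lower with TMM at a median of −1.68, and 89 were lower and 5 higher with total counts at −1.05, where the median of all transcripts was 0.66. Among the other genes the unspliced form was higher in 60 and lower in 57 in *SUP45* and higher in 73 and lower in 68 in *sup45-ts* with TMM, against 112 and 24 and 103 and 39 with total counts. Of the 135 genes whose ratio rose in *SUP45*, both forms were called lower in 105 and both were called higher in 8 under TMM. TPM keeps the total of a library fixed, so TPM values at 25°C and 37°C also carry this shift of the median transcript, which the ratio and the unspliced share do not.

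*RPL28*, which encodes a protein of the large ribosomal subunit, carries a 511-nt intron (chromosome VII, 310967 to 311927 in R64) and was among the 5 genes with the most unspliced RNA. Its unspliced TPM was 232 and 272 in *SUP45* at 25°C, 269 and 315 in *SUP45* at 37°C, 214 and 213 in *sup45-ts* at 25°C, and 356 and 339 in *sup45-ts* at 37°C. Spliced *RPL28* in the same order stood at 5728 and 6190, 977 and 888, 5786 and 5763, and 934 and 952 TPM. The unspliced share was therefore 3.89% and 4.20%, then 21.6% and 26.2% in *SUP45*, and 3.57% and 3.57%, then 27.6% and 26.3% in *sup45-ts*. The log2 ratio rose by 2.89 ± 0.16 (SE; adjusted p = 1.8e-06) in *SUP45* and by 3.32 ± 0.16 (adjusted p = 1.8e-06) in *sup45-ts*. At 37°C both *sup45-ts* shares lay above both *SUP45* shares, though the nearest were 26.3% and 26.2%. The log2 ratio differed by 0.24 ± 0.16 between the strains at 37°C, which did not pass the test (adjusted p = 0.28).

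*RPS0A*, for a protein of the small subunit, had an unspliced share among the lowest of its class, 0.661% and 0.786% in *SUP45* and 0.604% and 0.577% in *sup45-ts* at 25°C. At 37°C the share was 4.89% and 6.70% in *SUP45* and 5.74% and 4.06% in *sup45-ts*, higher than the mock libraries in each strain and overlapping between strains. Its log2 ratio rose by 3.07 ± 0.23 in *SUP45* (adjusted p = 4.9e-06) and 3.10 ± 0.23 in *sup45-ts* (adjusted p = 7.6e-06).

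*RPS13*, which encodes another small-subunit protein, had the largest rise in *sup45-ts* among ribosomal protein genes. The unspliced share was 2.93% and 3.27% at 25°C and 17.9% and 22.6% at 37°C in *SUP45*, and 2.88% and 2.92% against 42.4% and 36.7% in *sup45-ts*. No libraries overlapped between temperatures, and at 37°C both *sup45-ts* values lay above both *SUP45* values. The log2 rise was 2.98 ± 0.19 in *SUP45* and 4.45 ± 0.19 in *sup45-ts*, and the difference of 1.48 ± 0.26 between the strains passed the interaction test (adjusted p = 0.0058).

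Splicing of some genes is regulated by their own protein, and 6 such genes were looked up. *RPL22B*, the minor copy of the gene for a large-subunit protein that binds the intron of this pre-mRNA, changed from mostly spliced to mostly unspliced. Its unspliced share was 19.6% and 21.8% at 25°C and 88.6% and 84.1% at 37°C in *SUP45*. In *sup45-ts* it was 25.0% and 19.5%, then 64.9% and 59.3%. Unspliced TPM of *RPL22B* was 68.2 and 75.1 at 25°C and 122 and 142 at 37°C in *SUP45*, and spliced TPM was 280 and 269 against 15.6 and 26.9. The log2 ratio rose by 4.62 ± 0.26 in *SUP45* and by 2.53 ± 0.25 in *sup45-ts*, and the rise was smaller in *sup45-ts* by 2.09 ± 0.36 (interaction, adjusted p = 0.0050). The main copy *RPL22A*, shown for comparison and chosen after its values were seen, had a share of 2.27% and 2.41% at 25°C and 19.3% and 21.5% at 37°C in *SUP45*.

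*RPL30*, whose protein binds its own pre-mRNA and holds back splicing, had shares of 2.52% and 2.59% at 25°C and 13.3% and 17.7% at 37°C in *SUP45*. In *sup45-ts* its shares were 2.19% and 2.31%, then 7.81% and 7.57%, so the 37°C libraries of the strains did not overlap. The rises in log2 ratio of *RPL30* were 2.79 ± 0.17 and 1.85 ± 0.17. *RPS14B*, the minor copy of a small-subunit gene repressed by its own protein, had shares of 11.1% and 14.5%, then 29.8% and 31.6% in *SUP45*, and 8.93% and 9.70%, then 15.3% and 11.9% in *sup45-ts*. *RPS9A*, also under feedback, had shares of 10.3% and 11.7%, then 21.3% and 25.9% in *SUP45*, whereas in *sup45-ts* 12.3% and 10.6% at 25°C overlapped with 11.8% and 9.99% at 37°C. The log2 ratio of *RPS9A* rose by 1.32 ± 0.18 in *SUP45* (adjusted p = 0.00025) and changed by −0.08 ± 0.18 in *sup45-ts* (adjusted p = 0.77), a difference of −1.39 ± 0.25 that passed the interaction test (adjusted p = 0.0058).

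The other genes of this list are not ribosomal. *DBP2* encodes an RNA helicase and has a 1002-nt intron, and its share went from 4.57% and 4.97% to 31.6% and 33.5% in *SUP45*, and from 3.90% and 4.55% to 37.4% and 26.0% in *sup45-ts*. *YRA1* encodes an mRNA export adaptor whose pre-mRNA is spliced poorly and is exported. It had shares of 28.8% and 31.7% at 25°C and 22.9% and 25.0% at 37°C in *SUP45*, a log2 change of −0.46 ± 0.17 that did not pass (adjusted p = 0.053). In *sup45-ts* the *YRA1* shares were 24.1% and 24.8%, then 41.8% and 34.4%, and the log2 ratio rose by 0.93 ± 0.17 (adjusted p = 0.0017). Of the 6 feedback genes, the ratio rose in 5 on the shift in each strain, beside 46.4% and 55.0% of all genes tested, and 4 of the 6 are ribosomal protein genes, a class in which 99.0% and 97.0% rose. The call for *RPS14B* in *sup45-ts* was lost with 1 of 3 libraries left out, with log2 changes between 0.40 and 0.67.

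**Figure D3:**
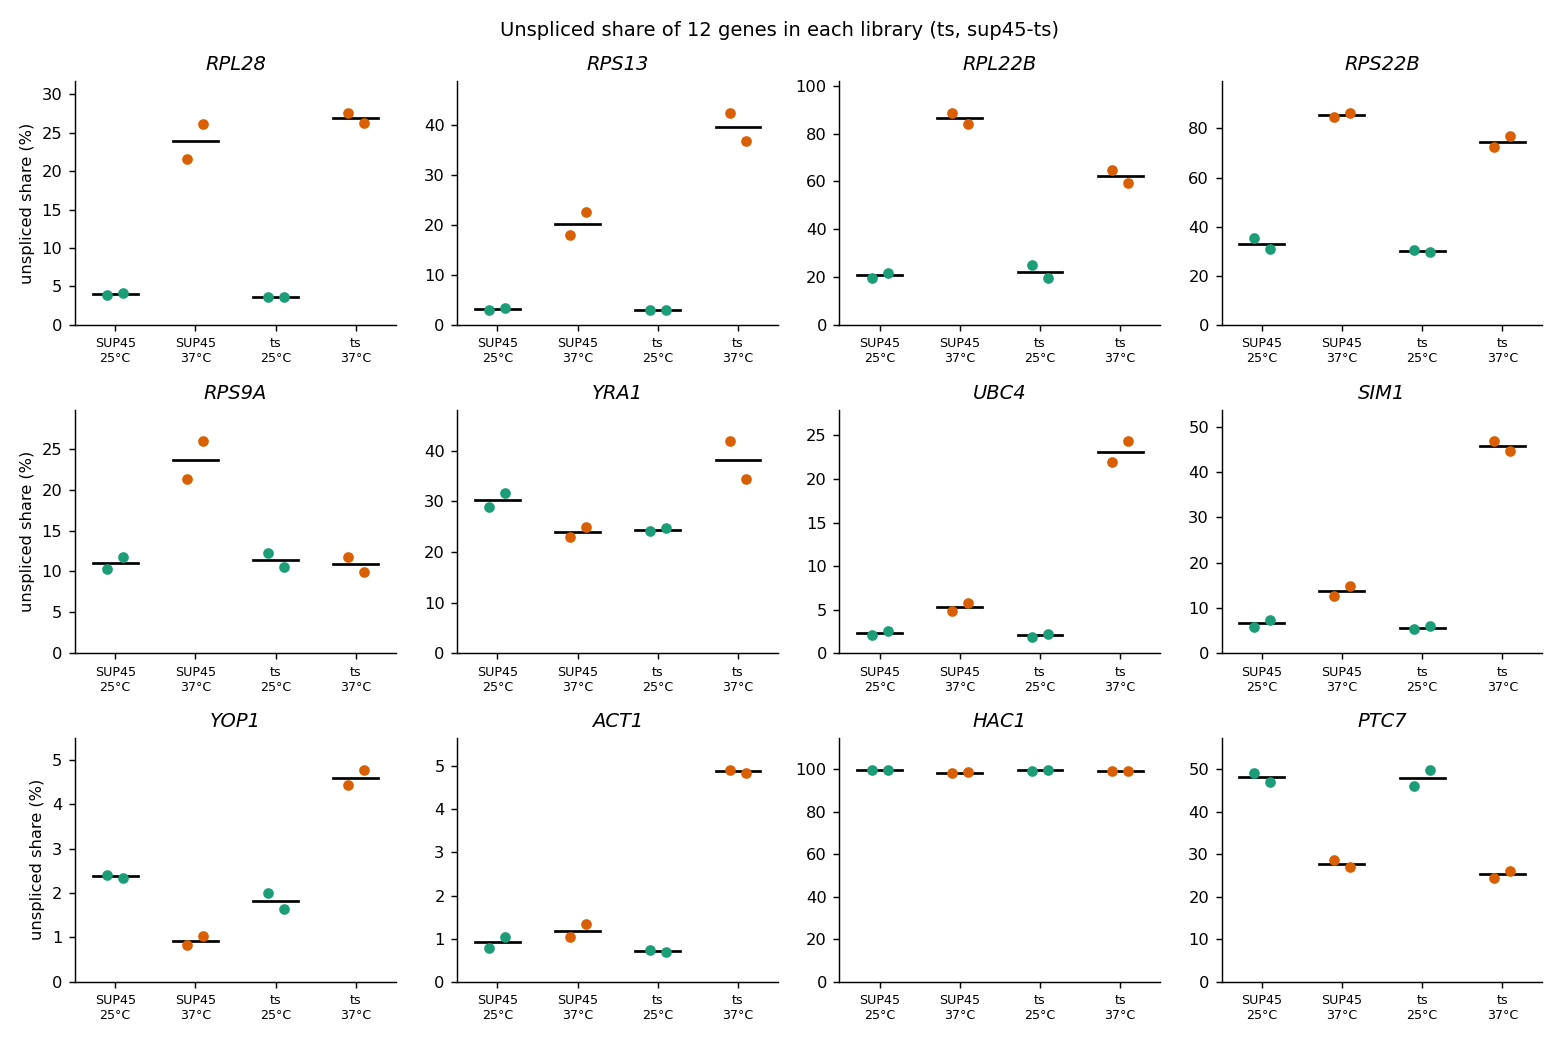
Unspliced share (percent of the TPM of both forms) of 12 genes in each of the 8 libraries, green at 25°C and orange at 37°C; points are libraries, black lines are means of 2, and each panel has its own vertical scale from 0. *RPL22B* and *RPS22B* pass 50% at 37°C in both strains, *UBC4*, *SIM1* and *ACT1* stand highest in *sup45-ts* at 37°C, and *PTC7* is lower at 37°C in both.

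Introns of 8 of these genes hold a small nucleolar RNA, a guide for modification of rRNA that is cut out of the intron, and all 8 lay inside the gene span in RefSeq. Reads from such an RNA could be counted to the unspliced form, which was not tested. In *SUP45* the ratio rose on the shift in 7 of 8, and in *sup45-ts* it rose in 7 and fell in *EFB1*, beside the same 46.4% and 55.0% of all genes; 3 of the 8 are ribosomal protein genes. *RPS22B* (chromosome XII, 856442 to 857317 from start to stop codon) had the greatest summed intron length, 1040 nt, of which 483 nt lie in the coding region and the rest in the 5’-UTR outside this span. It had the highest share of unspliced RNA among ribosomal protein genes at 25°C, 35.2% and 30.7% in *SUP45* and 30.6% and 29.5% in *sup45-ts*. At 37°C its share was 84.8% and 86.3% in *SUP45* and 72.3% and 77.0% in *sup45-ts*. *RPS22B* thus became mostly unspliced in both strains, with rises of 3.60 ± 0.17 and 2.78 ± 0.17 in the log2 ratio.

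The translation genes *ASC1* (a ribosome-bound scaffold), *TEF4* and *EFB1* (subunits of the exchange factor of elongation factor eEF1A) differed among themselves. The share of *ASC1* went from 1.40% and 1.72% to 7.22% and 11.5% in *SUP45*, and from 1.46% and 1.33% to 5.89% and 5.21% in *sup45-ts*. *TEF4* went from 2.46% and 3.18% to 6.88% and 9.06%, and from 2.61% and 2.46% to 4.16% and 3.81%. *EFB1* stood at 3.97% and 4.02%, then 4.32% and 5.79% in *SUP45*, and 4.43% and 4.26%, then 2.98% and 2.85% in *sup45-ts*. *EFB1* was the host gene whose ratio fell in *sup45-ts*, by 0.60 ± 0.18 on the log2 scale (adjusted p = 0.018). This call was lost with 1 of 3 libraries left out, as was the rise of *TEF4* in that strain. The rise of *RPL7B* in *sup45-ts* was lost without replicate 2 at 25°C or without replicate 1 at 37°C of that strain. *IMD4*, for inosine monophosphate dehydrogenase, went from 6.39% and 7.20% to 25.6% and 28.5% in *SUP45* and from 5.78% and 5.76% to 10.5% and 10.3% in *sup45-ts*, where the log2 rise of the ratio was smaller by 1.43 ± 0.17 (interaction, adjusted p = 0.0022). *NOG2*, a GTPase of large-subunit assembly, was listed as almost entirely unspliced in every library, 97.5% to 99.1%. This may be an allocation by RSEM, which was not tested. The spliced TPM of *NOG2* was 9.43 and 8.91 at 25°C and 4.71 and 4.70 at 37°C in *SUP45*.

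Outside the ribosomal protein genes, the changes ran in both directions. *UBC4*, a ubiquitin-conjugating enzyme for short-lived and damaged proteins, has a 95-nt intron and gained unspliced RNA in both strains. Unspliced *UBC4* was 8.34 and 8.99 TPM at 25°C and 71.8 and 91.7 TPM at 37°C in *SUP45*, and 5.86 and 6.49 against 134 and 143 in *sup45-ts*. Spliced *UBC4* was 387 and 348 at 25°C and 1393 and 1487 at 37°C in *SUP45*, but 300 and 292 against 475 and 445 in *sup45-ts*. The share went from 2.11% and 2.52% to 4.90% and 5.81% in *SUP45* and from 1.91% and 2.18% to 21.9% and 24.3% in *sup45-ts*, and no group overlapped with its mock.

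*HNT1*, a nucleotide-binding protein of the histidine triad family named after its values were seen, went from 6.96% and 6.34% to 28.5% and 28.3% in *SUP45* and from 6.20% and 5.92% to 25.0% and 25.2% in *sup45-ts*. Its spliced TPM of 152 and 154 at 25°C and 245 and 283 at 37°C in *SUP45* was not called changed (−0.08 ± 0.09 on the log2 scale), and the *HNT1* ratio rose by 2.48 ± 0.13, so a called loss of the spliced form did not go with this rise.

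Falls of the ratio in *SUP45* included several genes whose unspliced form was common at 25°C. *PTC7* encodes a phosphatase, and both its spliced and its unspliced RNA are known to be translated, to a mitochondrial and a nuclear envelope protein. Its unspliced share was 49.1% and 47.1% at 25°C and 28.6% and 27.1% at 37°C in *SUP45*, and 46.0% and 49.9%, then 24.5% and 26.0% in *sup45-ts*. The log2 ratio of *PTC7* fell by 1.27 ± 0.18 (adjusted p = 0.00033) and 1.45 ± 0.18 (adjusted p = 0.00015), and the strains did not differ detectably at 37°C (−0.19 ± 0.18, adjusted p = 0.43). *SCS22*, which encodes a protein that ties the endoplasmic reticulum to the plasma membrane, went from 39.0% and 40.0% to 14.4% and 12.7% in *SUP45*, whereas in *sup45-ts* the shares were 35.3% and 41.4%, then 30.0% and 30.6%. Its log2 ratio fell by 2.06 ± 0.27 in *SUP45* (adjusted p = 0.00022) and changed by −0.52 ± 0.27 in *sup45-ts* (adjusted p = 0.14), and that difference passed the interaction test (1.54 ± 0.38, adjusted p = 0.018).

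*HAC1*, the transcription factor of the unfolded protein response, is spliced in the cytoplasm by Ire1 and a tRNA ligase and not by the spliceosome. Its unspliced RNA was the most abundant of all, at 515 and 548 TPM in *SUP45* at 25°C and 1124 and 1320 at 37°C, and 544 and 500 against 826 and 906 in *sup45-ts*. Spliced *HAC1* was 2.70 and 1.74 TPM at 25°C and 22.9 and 18.0 at 37°C in *SUP45*, and 4.76 and 1.73 against 7.13 and 9.87 in *sup45-ts*. The *HAC1* ratio fell in *SUP45* by 2.02 ± 0.43 on the log2 scale (adjusted p = 0.0042) and changed by −0.79 ± 0.44 in *sup45-ts* (adjusted p = 0.15), while at least 98.0% stayed unspliced in every library. The difference between these changes did not pass (1.23 ± 0.61, adjusted p = 0.18).

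*GCR1*, a transcription factor of glycolytic genes, was likewise almost all unspliced in the deposited values, from 91.7% to 100%. Its spliced count was 0 and 31.2 in *SUP45* at 25°C, 1426 and 300.4 at 37°C, 2.80 and 0 in *sup45-ts* at 25°C and 457 and 415 at 37°C, so the ratio was called lower in both shifts from mock libraries with few or no spliced counts. *VMA10*, a subunit of the vacuolar proton pump, and *COF1*, the actin-severing protein cofilin, had high unspliced TPM with shares that spread widely. The *VMA10* share ran from 60.4% to 96.9% over the 8 libraries with replicates up to 25.6 points apart, and its ratio was called in no comparison. *COF1* ran from 42.6% to 64.2%. *SUS1*, a small protein of mRNA export and transcription, had shares of 8.14% and 8.47%, then 11.0% and 11.7% in *SUP45*, and 9.72% and 9.35%, then 13.1% and 15.3% in *sup45-ts*, and missed the threshold in each shift (adjusted p = 0.12 and 0.051).

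Meiotic genes are kept low in growing cells, and splicing of *REC107*, *HFM1*, *SPO22* and *AMA1* needs the meiotic factor Mer1. *REC107*, which is needed to start meiotic recombination, was 93.9% and 97.2% unspliced in *SUP45* and 93.1% and 92.1% in *sup45-ts* at 25°C. At 37°C it was 82.7% and 84.3% in *SUP45*, where the log2 ratio fell by 2.14 ± 0.44 (adjusted p = 0.0033), and 88.6% and 81.7% in *sup45-ts* (−1.09 ± 0.43, adjusted p = 0.058). *AMA1*, an activator of the anaphase-promoting complex, ranged from 54.2% to 100% with replicates far apart at 25°C in *sup45-ts*. *HFM1*, a meiotic DNA helicase, was mostly listed as spliced: its unspliced count was 0 and 0 in *SUP45* at 25°C, 125 and 149 in *SUP45* at 37°C, 24.9 and 24.9 in *sup45-ts* at 25°C and 972 and 1146 in *sup45-ts* at 37°C. *HFM1* was the only gene called between the strains at 25°C, and because 1 group is at 0 no fold is given. *SPO1*, a meiotic phospholipase-like protein, had unspliced counts of 0 in all 4 libraries at 25°C and of 270.5 and 249 (*SUP45*) and 410.4 and 145 (*sup45-ts*) at 37°C. Over the list of 9 other meiotic genes, the unspliced form was called higher in 5 on the shift in *SUP45* and in 7 in *sup45-ts* and lower in none, and the ratio rose in 1 and 2 of 9. Over all transcripts 38.4% and 44.6% were called higher, and over all genes the ratio rose in 46.4% and 55.0%, or in 18.4% and 32.6% of the genes that are not ribosomal, so the ratio rises of these 9 were no more frequent than elsewhere.

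Between the strains at 25°C hardly any difference passed the test. The ratio was called in 1 of 291 genes (0.344%), and 30 had an unadjusted p under 0.05. The unspliced form was called in 1 of 290 (*HFM1*, higher in *sup45-ts*), beside 0.118% higher, 0.0148% lower and 0.133% in all over the whole table, with 76 at an unadjusted p under 0.05 and 18 called by DESeq2. The median log2 difference of the ratio, *sup45-ts* less *SUP45*, was −0.16.

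At 37°C the strains differed widely, and most calls ran in opposite senses in the gene classes. In *sup45-ts* against *SUP45* the ratio was higher in 48 genes (16.5%) and lower in 81 (27.8%), 44.3% in all. Ribosomal protein genes made up 67 of the lower and 8 of the higher calls, with a median log2 difference of −0.68. The other genes made up 40 of the higher and 14 of the lower calls, with a median of 0.11, or 0.08 with genes at 0 set at their bound. This median was small and not firm: it was 0.004 without replicate 1 of *SUP45* at 37°C and 0.20 without replicate 1 of *sup45-ts* at 37°C. The unspliced form of ribosomal protein genes was lower in 90 of 101, with a median of −1.08, and their spliced form was lower in 50 and higher in 21, with a median of −0.25. Over all transcripts 39.4% were lower, 39.5% were higher and 78.9% were called. These counts were nearly the same with total counts, at 90 lower and 2 higher unspliced ribosomal protein transcripts. Among the 40 other genes with a higher ratio, the unspliced form was higher in 22 and the spliced form was lower in 35.

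The lowest log2 difference among ribosomal protein genes was that of *RPL6B*, a large-subunit gene chosen after its values were seen, with a share of 8.93% and 10.3% in *SUP45* and 2.24% and 2.07% in *sup45-ts* at 37°C. Its unspliced TPM at 37°C was 38.5 and 44.3 in *SUP45* and 17.6 and 16.5 in *sup45-ts*, and its spliced TPM was 392 and 384 against 766 and 784. The log2 difference of −2.28 ± 0.13 (adjusted p = 6.7e-05) thus came with less unspliced and more spliced RNA. The 8 with a higher ratio were *RPS13*, *RPL19A*, *RPL34A*, *RPL40B*, *RPS30A*, *RPS25B*, *RPS16A* and *RPL18B*, with log2 differences from 0.52 to 1.37. *RPS13* and *RPS30A* were also the ribosomal protein genes whose unspliced form was called higher in *sup45-ts* at 37°C.

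Opposite to most ribosomal protein genes, *UBC4*, *SIM1* and *YOP1* had the largest higher ratios in *sup45-ts* at 37°C under the rule for named genes. For *UBC4* the log2 difference was 2.41 ± 0.16 (adjusted p = 6.7e-05), with the unspliced form higher by 0.74 ± 0.12 and the spliced form changed by −1.67 ± 0.08. *SIM1*, a cell-wall protein of the SUN family with a 487-nt intron in the 5’-UTR, had shares of 5.79% and 7.41% (*SUP45*) and 5.34% and 5.99% (*sup45-ts*) at 25°C. At 37°C they were 12.6% and 14.9% in *SUP45* and 46.8% and 44.6% in *sup45-ts*. Spliced *SIM1* TPM at 37°C was 99.8 and 78.3 in *SUP45* and 21.8 and 21.0 in *sup45-ts*, and unspliced TPM was 14.3 and 13.8 against 19.2 and 16.9. The *SIM1* difference of 2.40 ± 0.19 (adjusted p = 9.9e-05) was thus mostly a loss of the spliced form.

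*YOP1*, which shapes tubules of the endoplasmic reticulum, moved in opposite directions in the strains. Its share was 2.40% and 2.34% at 25°C and 0.818% and 1.03% at 37°C in *SUP45*, and 1.99% and 1.65% against 4.42% and 4.77% in *sup45-ts*. The *YOP1* ratio fell by 1.39 ± 0.16 in *SUP45* and rose by 1.38 ± 0.16 in *sup45-ts*. Of the genes tested, 4 fell in *SUP45* and rose in *sup45-ts*: *YOP1*, *IWR1* (for nuclear import of RNA polymerase II), and the paralogs *CPT1* and *EPT1*, which complete the synthesis of phosphatidylcholine and phosphatidylethanolamine (the last 3 chosen after their values were seen). *CPT1* had shares of 4.50% and 6.37%, then 1.66% and 2.67% in *SUP45*, and 3.99% and 3.74%, then 9.58% and 9.97% in *sup45-ts*.

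**Figure D4:**
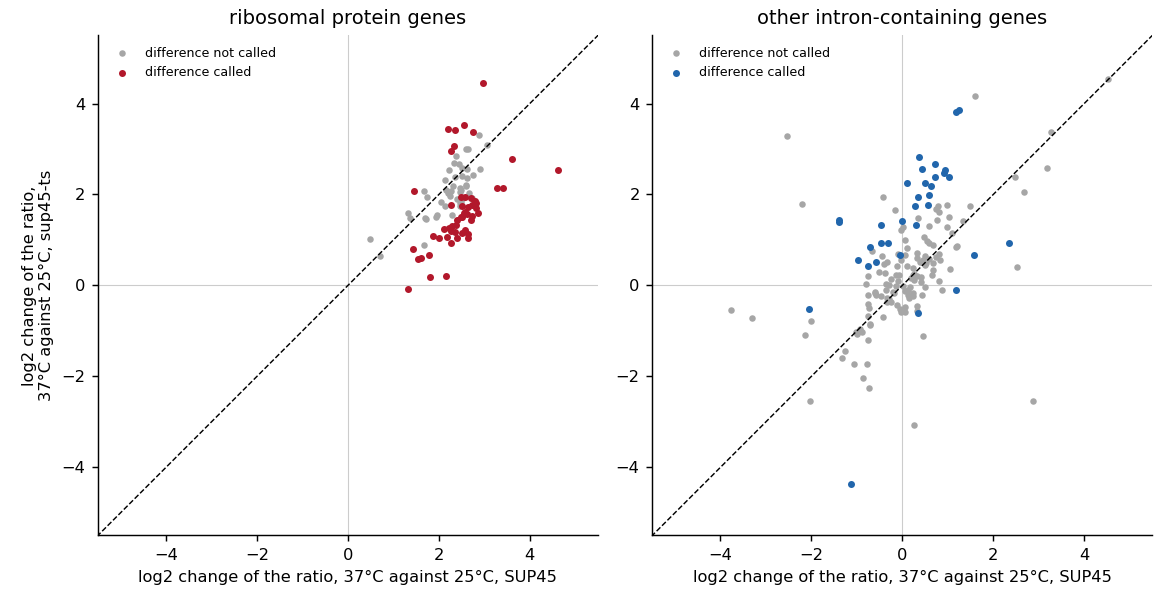
Log2 change of the unspliced over spliced ratio on the shift to 37°C in *sup45-ts* (vertical) against *SUP45* (horizontal), ribosomal protein genes left and other genes right; coloured points passed the test of the difference between the strains, and the dashed line marks equal change. Of 274 genes with a usable fold, 7 lie outside the axes; most coloured ribosomal protein points lie below the line and most other coloured points above it.

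Tested directly as an interaction, the heat change of the ratio differed between the strains in 90 of 291 genes (30.9%), 37 with a higher signed log2 change in *sup45-ts* than in *SUP45* (12.7%) and 53 with a lower one (18.2%). Of the ribosomal protein genes, 45 had a lower and 8 a higher change in *sup45-ts*, with a median difference of −0.60. The count of lower changes was not firm. It fell with any library at 25°C left out and moved in both directions with a library at 37°C left out. Each of these fits leaves 1 library in a group. The median difference moved less. It was −0.61 and −0.55 without replicate 1 or 2 of *SUP45* at 25°C, and −0.58 and −0.55 without those of *sup45-ts* at 25°C. With a library at 37°C left out it ran from −0.68 to −0.47. The 8 became 4 without either *SUP45* library at 25°C and 5 without either *sup45-ts* library at 25°C. Of the other genes 29 had a higher and 8 a lower change, with a median of 0.20, and the 8 became 5 without replicate 1 of *SUP45* at 25°C. For the unspliced form alone, the interaction was called in 41 genes upward and 141 downward of 290, beside 34.5% upward, 35.7% downward and 70.1% in all over the whole table.

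Other intron genes were also grouped by function and compared between the strains at 37°C. Over all 190 of them the ratio was higher in *sup45-ts* in 21.1% and lower in 7.37%, with a median log2 difference of 0.11. Of the 9 genes of vesicle traffic, the ratio was higher in 4 and lower in none, with a median of 0.59. They were *SAR1* (the GTPase that starts COPII coats), *SNC1* (a vesicle SNARE), *SEC17* (the SNAP that recycles SNAREs) and *ERV41* (a COPII vesicle protein). *SEC17* had shares of 8.67% and 11.1% in *SUP45* and 22.3% and 22.8% in *sup45-ts* at 37°C, against 6.70% to 9.37% in the mock libraries. Of the 7 cytoskeletal genes the ratio was higher in 2, *ACT1* and *PFY1*, and lower in *TUB1*. Of the 7 genes of ubiquitin conjugation it was higher in 2, *UBC4* and *UBC8*, and lower in none. With so few genes, the counts of these last groups lay near the shares over all 190, and the higher calls in ubiquitin conjugation ran from 1 to 3 with a library left out.

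*ACT1*, actin, was picked out after its values were seen and is among the genes best spliced in these data. Its share was 0.791% and 1.05% at 25°C and 1.04% and 1.33% at 37°C in *SUP45*, overlapping ranges, and 0.736% and 0.699% against 4.92% and 4.84% in *sup45-ts*. Unspliced *ACT1* was 12.1 and 14.2, then 21.1 and 24.9 TPM in *SUP45*, and 11.3 and 10.9, then 28.3 and 27.2 in *sup45-ts*. Spliced *ACT1* at 37°C was 2017 and 1846 TPM in *SUP45* and 546 and 534 in *sup45-ts*. The ratio was higher in *sup45-ts* at 37°C by 2.11 ± 0.19 on the log2 scale (adjusted p = 0.00020), and the spliced form differed by −1.86 ± 0.10. *PFY1*, profilin, had shares of 5.03% and 6.22% in *SUP45* and 14.5% and 14.3% in *sup45-ts* at 37°C. *TUB1*, the main alpha-tubulin, had 31.8% and 41.1% in *SUP45* and 23.2% and 19.1% in *sup45-ts*, and was the member of this list whose ratio was lower.

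Intron length and class went together. Of 142 genes with an intron of 200 nt or more, 100 encode ribosomal proteins, and the mean share in *SUP45* over all 142 had a median of 2.44% at 25°C and 9.24% at 37°C. The 154 genes with shorter introns had medians of 14.9% and 15.9%. The 42 other genes with an intron of at least 200 nt had 12.7% and 15.9%, and their median log2 change of the ratio on the shift in *SUP45* was 0.29, beside 2.42 in the ribosomal protein genes of that length. Among genes whose spliced form fell by more than 2 on the log2 scale in *SUP45*, the ratio rose in 97 of 98 ribosomal protein genes and in 6 of 6 others, with medians of 2.45 and 2.97. The ratio and the spliced change share the spliced count, so these medians are a description. In *sup45-ts* it rose in 96 of 98 ribosomal protein genes and in 13 of 19 others, with medians of 1.83 and 0.99.

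**Figure D5:**
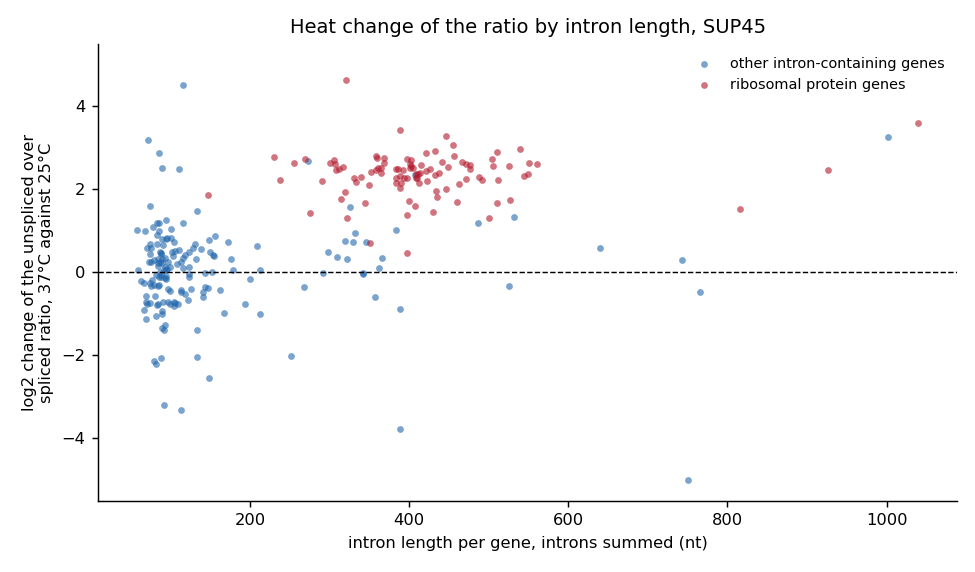
Log2 change of the unspliced over spliced ratio on the shift to 37°C in *SUP45* (vertical) against the intron length of a gene in nt, summed over its introns (horizontal), for 275 genes with a usable fold, of which 6 lie outside the axis; each point is a gene. Ribosomal protein genes with introns of 200 nt or more have a median of 2.42, and other genes in the same length range have a median of 0.29.

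Ribosomal proteins are often encoded by a pair of near-identical genes, between which RSEM has to divide reads, so values of single copies are uncertain. In the 46 pairs in which both copies carry an intron, the heat change of the ratio in *SUP45* differed between copies by a median of 0.39 on the log2 scale and by at most 1.66. The widest pair, chosen by that value, was *RPS27A* and *RPS27B*: *RPS27A* had shares of 25.2% and 22.4%, then 33.6% and 33.9% in *SUP45*, and *RPS27B* had 1.34% and 1.39%, then 6.60% and 6.68%. In the heat change of *sup45-ts* the copies differed by a median of 0.55 and by at most 2.17. In the strain comparison at 37°C they differed by a median of 0.71 and at most 2.09, and in the interaction by 0.68 and at most 2.19. The class medians of these last comparisons, −0.68 and −0.60, are no larger in size, so strain calls on single copies are uncertain. Among all 296 genes, 10 overlap another gene, and their values are uncertain too, since the sources used here do not give the strand setting of the RNA-Seq count.

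Of the 47 entries without a spliced partner, 35 had counts enough to be tested. On the shift 14 were higher and 4 lower in *SUP45*, that is 40% and 11.4% beside 38.4% and 37.4% of all transcripts, and 10 were higher and 18 lower in *sup45-ts*, 28.6% and 51.4% beside 44.6% and 42.0%. With total counts they were 27 and 0 in *SUP45* and 15 and 10 in *sup45-ts*, so the balance in *sup45-ts* turned with the scaling. At 37°C, *sup45-ts* against *SUP45*, 5 were higher and 24 lower (14.3% and 68.6%, beside 39.5% and 39.4%), and 5 and 26 with total counts. *OAZ1*, which encodes the antizyme that restrains polyamine synthesis, was listed at 14.7 and 17.5 TPM, then 62.5 and 65.2 in *SUP45*, and 14.5 and 16.3, then 41.0 and 35.2 in *sup45-ts*. It was thus higher at 37°C in each strain, and less so in *sup45-ts*.

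The mRNAs of the machinery itself were examined from lists. Of 64 spliceosome proteins, 12 mRNAs were called higher (18.8%) and 29 lower (45.3%) on the shift in *SUP45* with TMM, beside 38.4% and 37.4% of all transcripts. With total counts 42 were higher and 5 lower, beside 63.6% and 18.0%, so the direction of this list turned with the scaling. In *sup45-ts* 24 were higher and 25 lower on the shift with TMM, and at 37°C 25 were higher and 22 lower than in *SUP45*, both near the shares over all transcripts (44.6% and 42.0%, 39.5% and 39.4%); with total counts the shift in *sup45-ts* gave 45 and 12. Of 10 factors of mRNA surveillance and decay, 9 mRNAs were lower and none higher on the shift in *SUP45* and 7 lower and 2 higher in *sup45-ts*, beside 37.4% and 42.0% lower over all transcripts. With total counts 5 were lower and 2 higher in *SUP45* and 7 lower and 3 higher in *sup45-ts*, beside 18.0% and 25.1% lower. At 37°C 5 of the 10 were lower and 3 higher in *sup45-ts*, near the 39.4% and 39.5% of all transcripts. The lower ones at 37°C included *XRN1*, the cytoplasmic 5’ to 3’ exonuclease, at 172.86 and 160.26 TPM in *SUP45* and 88.25 and 68.28 in *sup45-ts*, and *RAT1*, its nuclear counterpart, at 73.01 and 66.17 against 35.70 and 32.42. The core factors of nonsense-mediated decay were split at 37°C: *NAM7* was lower in *sup45-ts* (log2 difference −0.60 ± 0.07) and *UPF3* was higher (0.32 ± 0.07). *NMD2*, a further core factor that has an intron of its own, was also among the higher ones (0.69 ± 0.07). Its spliced TPM at 37°C was 53.0 and 50.7 in *SUP45* and 94.8 and 76.1 in *sup45-ts*, and its unspliced TPM of 10.4 and 12.4 overlapped with 11.2 and 9.61.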

How the data were processed

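Deposited tables of RNA-Seq libraries were used, 8 in all. The authors counted reads with RSEM on a reference of spliced and unspliced R64 transcripts and deposited expected counts (estimated counts per transcript) and TPM (length-corrected shares of a fixed total); reads were not pre-trimmed. Ribosome profiling counts of 8 libraries were not used here, because antisense frames held the highest values and abundant mRNAs stood at 0. Readthrough tables served only for region lengths; genes with 2 introns were not grouped, and sequences were not used here.

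Expected counts were rounded and fitted over 8 libraries in edgeR 4.0.16 (R 4.3.3) by the quasi-likelihood test with TMM, filterByExpr and Benjamini-Hochberg adjustment over all 6767 transcripts passing. Of 296 unspliced and spliced forms, 290 and 276 passed. Ratios were fitted with 16 columns per gene (form by group, library as a term) in 291 genes, with adjustment over these. The threshold was 0.05. Each SE was derived from the test, as the absolute log2 change divided by the square root of its F statistic. Exact permutation of 2 against 2 libraries cannot go below p = 0.333. Counts were simulated for strain at 37°C with 2-fold differences. Of 200 changed transcripts (6739 tested) 100% were recovered, and of 60 changed ratios (290 tested) 96.7%, with 5.21% and 4.92% false calls. In the data 78.9% of transcripts were called in this comparison, and recovery at such a share was not tested.

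Members and lists were chosen with earlier results of these data known. Named were *RPL28*, *RPS0A*, genes of the short lists, the 3 largest rises and falls of the ratio per comparison without overlap and with a mean unspliced count of at least 100, and the 5 highest unspliced levels and shares. Alternatives were DESeq2 1.42.0, limma 3.58.1, other scaling, filters, a replicate block and leaving out each library.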

Additional observations from a re-analysis of the deposited data

Results flagged for a closer look

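The heat change of the unspliced over spliced ratio differed between *sup45-ts* and *SUP45* in 90 of 291 genes by the interaction test. Among the genes named by the rule, the signed log2 change in *sup45-ts* less that in *SUP45* was negative in *CIN2* (−5.40), *YKR005C* (−3.24), *RPL22B* (−2.09), *IMD4* (−1.43), *RPS9A* (−1.39), *RPS14B* (−1.0), *RPL7B* (−0.95), *EFB1* (−0.94), *RPL30* (−0.93), *TEF4* (−0.90) and *RPS22B* (−0.81). It was positive in *YOP1* (2.77), *SIM1* (2.63), *UBC4* (2.59), *SCS22* (1.54), *RPS13* (1.48) and *YRA1* (1.39). The sign gives the direction of the difference and not which strain moved more: the ratio of *YKR005C* fell in *sup45-ts* and that of *SCS22* fell in *SUP45*, while neither passed the test in the other strain.

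*YKR005C*, a gene without a standard name, had an unspliced share of 87.8% and 81.8%, then 73.6% and 70.6% on the shift in *SUP45*, and 91.2% and 82.9%, then 24.9% and 25.8% in *sup45-ts*. The value for *CIN2*, which encodes a tubulin folding factor, rests on spliced counts of 6.08 and 0 in *SUP45* at 37°C, beside 22.1 and 64.6 in *sup45-ts*, so its size is uncertain.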

How the results depend on the processing

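Over 80 results on named genes and 960 alternatives, 917 kept the call, 43 lost it and none changed direction, and 70 results kept the call throughout. Many of these genes were named for the largest called changes in the same data, a choice that favours a kept call. The 12 alternatives for a ratio did not include scaling, which cancels in it. Counts by direction were less stable. With total counts (chosen after seeing the data), the unspliced forms called on the shift in *SUP45* went from 61 higher and 154 lower to 114 and 65, and in *sup45-ts* from 74 and 165 to 108 and 128. Without replicate 2 of *SUP45* at 37°C, the ratio of other genes on the shift in *SUP45* went from 35 higher and 20 lower to 20 and 21. The counts between strains at 25°C, where 1 unspliced form and 1 ratio were called, moved most: 18 unspliced forms with DESeq2, 3 with the replicate block, 0 by edgeR with only the libraries compared (76 had an unadjusted p under 0.05 in the fit over all 8 libraries), 5 with total counts and 0 to 13 with a library left out; 2 ratios with limma on counts or on TPM. Replicate numbers did not pair the libraries (correlations of replicate differences −0.17 to 0.22), and the block moved no other count by over 1.5 times. With a library left out, called ratios ran over 141 to 161 (heat in *SUP45*), 156 to 176 (heat in *sup45-ts*), 1 to 1 (strain at 25°C), 112 to 129 (strain at 37°C) and 61 to 102 (interaction), and unspliced forms over 200 to 220, 228 to 242, 0 to 13, 201 to 214 and 164 to 183. The fit with only the libraries compared was not run for the interaction. With 2 libraries a group, small differences cannot be resolved, and shares of genes with few spliced or unspliced counts are imprecise.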

Other observations

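Several genes had no usable fold because a form was at 0. *YBR219C*, *YEL076C-A*, *BUD25*, *YFR045W* and *YRF1-3* had the highest unspliced shares, 100% in each of the 8 libraries. *YFR045W* had unspliced TPM of 13.3 and 10.9 at 25°C and 38.4 and 39.0 at 37°C in *SUP45*, and 11.4 and 11.1 against 42.6 and 41.2 in *sup45-ts*, higher at 37°C in each strain.

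*YDR535C* had unspliced shares of 73.7% and 67.2%, then 100% and 100% in *SUP45*, and 64.7% and 66.7%, then 25.8% and 39.1% in *sup45-ts*. Its spliced count was 0 and 0 in *SUP45* at 37°C and 185 and 181 in *sup45-ts* at 37°C. *YJR079W* had no spliced count in *SUP45* and 96.8 and 135 in *sup45-ts* at 37°C.

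*USV1*, a stress-responsive transcription factor with an intron in the 5’-UTR, had unspliced TPM of 0.29 and 0.25 at 25°C and 8.16 and 9.77 at 37°C in *SUP45*, and 0.10 and 0.35 against 10.3 and 10.4 in *sup45-ts*. Its share was 39.7% and 35.2%, then 62.6% and 66.8% in *SUP45*, and 13.5% and 47.3%, then 85.4% and 89.9% in *sup45-ts*, with replicates far apart at 25°C in *sup45-ts*.

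The meiotic gene *SPO22* had unspliced counts of 138 and 34.3, then 929 and 904 in *SUP45*, and 0 and 68.7, then 172 and 372 in *sup45-ts*, where its spliced counts at 37°C were 4460 and 4299. *RPL7A* and *RPL7B*, a paralog pair of snoRNA hosts, had shares at 37°C of 6.37% and 8.53% against 13.5% and 16% in *SUP45*, and of 4.65% and 4.03% against 7.66% and 7.48% in *sup45-ts*.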
